A study of Homo sapiens with 6 samples.

Results

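The nuclear-encoded subunits of the mitochondrial respiratory chain were taken as the genes whose symbols begin with NDUFA, NDUFB, NDUFC, NDUFS or NDUFV and end in a number, together with NDUFAB1, all symbols starting with UQCR or with COX4 to COX8, and the ATP5 symbols, with pseudogenes left out. This rule found 82 of the 26255 genes in the deposited tables: 38 of complex I (NDUF), 9 of complex III (UQCR), 17 of complex IV (COX) and 18 of complex V (ATP5). It reads symbols only, so it also takes ATP5S and ATP5SL, which are not chain subunits, and NDUFA4, which is now known as a complex IV subunit. It leaves out other genes of the chain, among them CYC1, USMG5 and C14orf2. The cells were 22RV1, a single human line of castration-resistant prostate cancer (CRPC), cultured in RPMI medium with fetal bovine serum. In 3 samples the cells received 10 nM bruceantin (BCT), a plant quassinoid, and in 3 samples the vehicle DMSO, both for 24 h, and total RNA was sequenced. The labels number the samples of each group 1 to 3 but do not say that they were separate cultures, so the p-values below measure only the spread between these samples.

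Complexes I, III and IV pass electrons from NADH to oxygen in the inner mitochondrial membrane and pump protons as they do so, and complex V, the ATP synthase, uses the proton gradient to make ATP. Each complex is built from core subunits that carry out electron transfer, proton transport or catalysis and from accessory subunits that surround them. Most subunits are encoded in the nucleus, made in the cytosol and imported, while a small set of core subunits is encoded by mitochondrial DNA. None of the 13 symbols listed for the latter was present in the deposited values, so they were not analysed here.

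Expression was given as FPKM, a unit that scales sequenced fragments to the length of the transcript and to the mapped reads, which holds no read counts, so that only the relative depth of the samples could be read from the lowest values (0.880 to 1 for DMSO and 1.05 to 1.13 for BCT, relative to DMSO sample 1). Over all genes the FPKM added up to 1169649 to 1572321 in the DMSO samples and to 757534 to 799838 in the BCT samples, and a single gene, MIR6087, held 43.5% to 55.3% of the sum with DMSO and 31.7% to 32.5% with BCT. Of the marker lists, all 9 prostate luminal genes passed the filter on low values (5 called, of which 3 lower), against 3 of 6 neuroendocrine genes (ENO2 called lower, SYP at -0.31 and CHGB at 0.49 on the log2 scale) and 3 of 6 stromal genes. The 6 stromal genes summed to 11.2 to 12.8 FPKM with DMSO and 23.3 to 25.1 FPKM with BCT, with COL1A1 and ACTA2 called higher, VIM lower at the FDR alone (log2 fold change -0.64) and COL1A2, DCN and PDGFRB below 0.2 FPKM in every sample; whether this bears on any result below was not tested. In a bulk sample of this kind, fewer cells of a type and less RNA per cell cannot be told apart.

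Respiratory chain genes were mostly lower in BCT-treated cells, by a moderate amount. Of the 74 members that passed the filter on low values (a mean of 1 FPKM or more), 65 had a lower and 9 a higher mean log2 value with BCT, and the median log2 fold change was -0.43 (a change of -25.9%), against -0.038 over all 12729 genes tested. This direction holds for the values as deposited and turns when every sample is rescaled to the same FPKM sum, which moves the median of all genes by 0.76 and that of the members to 0.33. With MIR6087 left out of those sums, the median of the members was -0.046, with 42 members below 0 and 32 above. Relative to the median of all genes, 63 of the 74 members were lower as deposited and 46 after quantile normalization, while a scaling by 1 factor per sample shifts all genes nearly alike and so leaves this count nearly fixed. At a false discovery rate (FDR) below 0.05 in limma, 60 members (81.1%) fell, where 42.8% of all tested genes did, and 5 members (6.76%) rose, where 39.3% of all tested genes did. When a log2 fold change beyond 0.85 was required as well, 6 members (8.11%) were called lower, where 17.8% of all tested genes were called, and 0 were called higher, where 13.9% of all tested genes were. In 61 members (82.4%) every BCT sample lay below every DMSO sample, as in 44.3% of all tested genes, and in 5 (6.76%) every BCT sample lay above, as in 41% of all tested genes. The members thus passed the FDR in the downward direction more often than tested genes in general and passed the fold change threshold less often, as descriptions of these counts. Tested genes averaging 100 FPKM or more, compared below, also fell at the FDR more often than tested genes in general, in 63.9%.

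The fold changes of the members lay close together. Their SD across the 74 genes was 0.37 on the log2 scale, against 0.999 across all tested genes, and they ran from -1.16 (NDUFAB1) to 0.54 (ATP5SL). The quartiles were -0.71 and -0.22 for the members and -0.63 and 0.51 for all tested genes. The members are abundant transcripts, with a median of 216 FPKM in DMSO against 11.9 FPKM over all tested genes. The 894 tested genes averaging 100 FPKM or more had a median log2 fold change of -0.42, and the 61 members above the same level had -0.44, a comparison chosen after the values were seen. At the FDR, 63.9% of those 894 genes fell and 20.8% rose, against 82.0% and 4.92% of the 61 members. Every BCT sample lay below every DMSO sample in 65.4% and 83.6%. Of those 894 genes, 24.8% were called lower and 5.48% higher, whereas 9.84% of the 61 members were called lower. The SD of the fold changes was 1.20 in the 894 genes, which ran from -9.14 to 9.38, and 0.36 in the 61 members. Their quartiles, which extreme values move less, were -0.87 and 0.052 against -0.75 and -0.22. The median of the members was thus close to that of genes above the same floor, and their fold changes were less spread; levels above the floor were not matched.

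**Figure D1:**
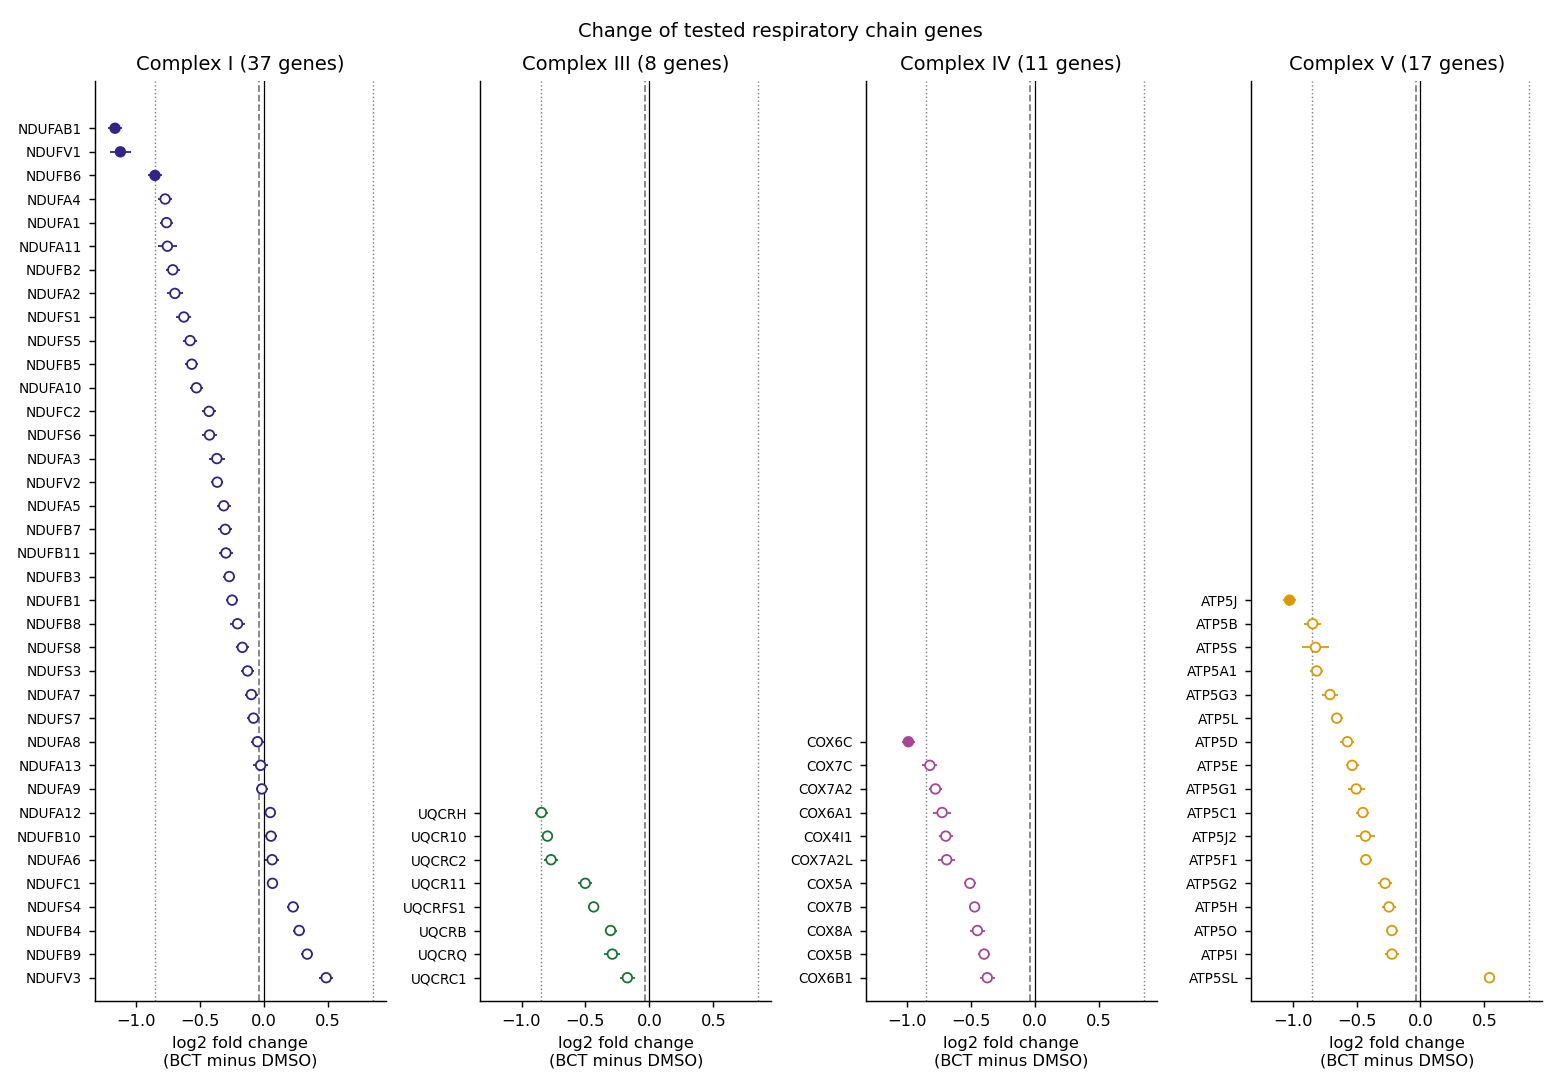
Log2 fold change (BCT minus DMSO, values as deposited) of 73 of the 74 tested members by complex, with bars of 1 SE; filled points were called, dotted lines mark -0.85 and 0.85 and the dashed line the median of all tested genes. Most points lie left of the dashed line and 5 lie beyond the lower threshold. With equal FPKM sums the zero line moves and 15 of all 74 lie below 0, or 42 with MIR6087 left out of the sums.

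**Figure D2:**
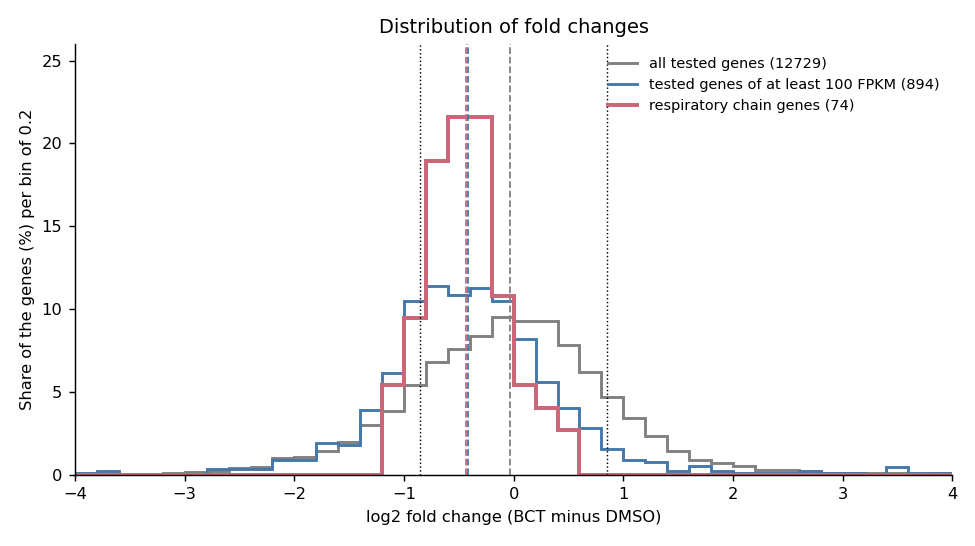
Share of genes in each bin of log2 fold change (BCT minus DMSO, values as deposited) for the 74 members, the 894 tested genes of at least 100 FPKM and all 12729 tested genes, the few genes beyond either end of the axis not drawn; dashed lines are medians and dotted lines the fold change threshold. The members form a narrow peak around -0.43, a median close to the -0.42 of genes of at least 100 FPKM. With equal FPKM sums the median of the members is 0.33, and -0.046 with MIR6087 left out of the sums.

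The 6 members called lower were 4 subunits of complex I and 1 each of complexes IV and V. NDUFAB1, the mitochondrial acyl carrier protein that also serves as an accessory subunit of complex I, had 253, 245 and 253 FPKM in the DMSO samples and 119.99, 109.6 and 106 FPKM in the BCT samples. NDUFV1, the core subunit that binds NADH and the flavin cofactor, had 169, 163 and 168 FPKM in the DMSO samples and 86.97, 75.8 and 67.8 FPKM in the BCT samples. In both genes every BCT sample lay below every DMSO sample by a wide margin, and NDUFV1 had the wider spread among the BCT samples. ATP5J, which encodes coupling factor 6 of the stalk of the ATP synthase, had 156, 149 and 145 FPKM in the DMSO samples and 77.3, 72.02 and 71.3 FPKM in the BCT samples. COX6C, an accessory subunit of complex IV, had 217, 218 and 225 FPKM in the DMSO samples and 116, 105 and 111 FPKM in the BCT samples. NDUFB6, an accessory subunit in the membrane arm of complex I, had 153, 153 and 155 FPKM in the DMSO samples and 90.8, 81.6 and 83.4 FPKM in the BCT samples. No sample of one group overlapped the other in any of these genes either.

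The log2 fold change was -1.16 for NDUFAB1 (SE 0.0566, limma, adjusted p = 9.2e-07) and -1.12 for NDUFV1 (SE 0.0847, limma, adjusted p = 5.2e-06). It was -1.02 for ATP5J (SE 0.0534, limma, adjusted p = 1.1e-06), -0.99 for COX6C (SE 0.0517, limma, adjusted p = 1.1e-06) and -0.85 for NDUFB6 (SE 0.0532, limma, adjusted p = 2.1e-06). NDUFB6 lay at the threshold with -0.8516, and UQCRH and ATP5B lay just outside it with -0.8445 and -0.8428, so the count of 6 is set by differences far smaller than the SE. NDUFB6 was not called without DMSO sample 3, without BCT sample 2 or without BCT sample 3, nor with a pseudocount of 1 or after any rescaling of the samples. Without DMSO sample 2, UQCRH and COX7C were called as well, without DMSO sample 3 ATP5B and ATP5S, without BCT sample 1 ATP5B, ATP5S and UQCRH, and without BCT sample 2 ATP5S, which takes complex III from 0 to 1 call, complex IV from 1 to 2 and complex V from 1 to 3. A test against the fold change threshold itself called 4 members, among them NDUFAB1, NDUFV1 and ATP5J. On hg19, as the tables give it, NDUFAB1 lies at chr16:23592335-23607639, NDUFV1 at chr11:67374323-67380012, NDUFB6 at chr9:32540542-32573182 and ATP5J at chr21:27096791-27144771. The intervals of ATP5J and NDUFB6 are merged loci that the tables also give to GABPA and to TOPORS.

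Promoters of called members are shown because these genes had the largest falls of the chain and because nuclear respiratory genes are known to share binding words for NRF1, ETS factors such as GABPA, and YY1. RefSeq (GRCh38.p14) gave promoter windows for 65 of the 82 members, among them NDUFAB1, NDUFV1, NDUFB6 and ATP5J, but not COX6C. The 250 bases before the start of transcription lie at chr16:23596317-23596566 (minus strand) for NDUFAB1, at chr11:67606686-67606935 (plus strand) for NDUFV1, at chr9:32573160-32573409 (minus strand) for NDUFB6 and at chr21:25734905-25735154 (minus strand) for ATP5J, for which RefSeq has 2 starts and the window with more words is given. Capitals mark the ETS word CCGGAAG and the YY1 word AAGATGGCG, on either strand.
NDUFAB1: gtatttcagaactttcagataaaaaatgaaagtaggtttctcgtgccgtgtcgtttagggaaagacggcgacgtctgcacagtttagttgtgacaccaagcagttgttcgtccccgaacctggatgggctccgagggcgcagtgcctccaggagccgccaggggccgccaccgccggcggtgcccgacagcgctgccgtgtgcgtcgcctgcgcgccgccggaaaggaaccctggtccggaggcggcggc
NDUFV1: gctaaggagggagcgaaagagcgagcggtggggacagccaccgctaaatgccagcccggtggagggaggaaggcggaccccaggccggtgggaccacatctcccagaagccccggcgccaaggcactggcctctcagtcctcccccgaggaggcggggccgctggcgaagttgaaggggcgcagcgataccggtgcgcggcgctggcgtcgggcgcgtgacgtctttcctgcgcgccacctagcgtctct
NDUFB6: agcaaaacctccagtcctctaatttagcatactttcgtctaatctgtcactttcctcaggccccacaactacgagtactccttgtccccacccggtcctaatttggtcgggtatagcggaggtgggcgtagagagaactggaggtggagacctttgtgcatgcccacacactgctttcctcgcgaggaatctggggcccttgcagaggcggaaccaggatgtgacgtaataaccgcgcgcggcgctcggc
ATP5J: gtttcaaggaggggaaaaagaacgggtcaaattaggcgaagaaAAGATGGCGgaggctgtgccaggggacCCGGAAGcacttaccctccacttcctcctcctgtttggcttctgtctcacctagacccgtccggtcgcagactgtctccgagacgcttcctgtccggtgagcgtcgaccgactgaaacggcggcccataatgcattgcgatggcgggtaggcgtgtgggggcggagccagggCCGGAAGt
The ATP5J window held 1 YY1 word and 2 ETS words, and in the windows of NDUFAB1, NDUFV1 and NDUFB6 none of the words searched was found, which says only that these letters are not there.

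Over the 65 members with a window of 300 bases (250 before and 50 after a start), the NRF1 word (GCGCA, any base, GCGC) stood in 14 (21.5%, against 6.98% of 27305 genes with windows), the ETS word in 18 (27.7%, against 12.2%) and the YY1 word in 8 (12.3%, against 2.14%), with both strands searched and no word of 1 factor overlapping that of another in a member. The 27305 genes are all genes with windows, more than the 12729 tested here, and were not matched to the members in level. At least 1 of the words stood in 35 members. The median log2 fold change was -0.22 in the 13 tested members with the NRF1 word and -0.43 in the 48 without it. For the ETS word the medians were -0.48 in 18 members with it and -0.36 in 43 without it. For the YY1 word they were -0.090 in 8 members with it, 1 of them the called gene ATP5J, and -0.44 in 53 without it. These medians were not tested against each other.

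Complex I, which takes electrons from NADH, was the complex whose genes moved least uniformly. Its 38 members, all tested, had a median log2 fold change of -0.30 (change of -18.7%), which becomes 0.47 with equal FPKM sums and 0.087 with equal sums without MIR6087. At the FDR, 25 fell (65.8%, where 42.8% of all tested genes did), 4 rose (10.5%, where 39.3% did) and 9 passed in neither direction, and all 9 members of the whole set that passed in neither direction belonged to this complex. The 7 core subunits that carry flavin, iron-sulphur clusters and the quinone site had a median of -0.36 and the 31 accessory subunits one of -0.30, in the values as deposited. Among the accessory subunits, the 13 numbered NDUFA genes had a median of -0.31 and the 11 NDUFB genes one of -0.27.

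The core subunits did not move together. NDUFV1 was called lower, as described above. NDUFS1, the largest iron-sulphur subunit, had 71.7, 72.2 and 65.6 FPKM in the DMSO samples and 46.6, 46.01 and 43.01 FPKM in the BCT samples, and it fell without reaching the fold change threshold (log2 fold change -0.63, SE 0.0581, limma, adjusted p = 1.6e-05). NDUFV2, the partner of NDUFV1 in the NADH-oxidising module, had 229, 217 and 219 FPKM in the DMSO samples and 173, 171 and 172 FPKM in the BCT samples (log2 fold change -0.36, SE 0.045, limma, adjusted p = 8.6e-05). The 2 partners of that module thus fell by different amounts, -1.12 against -0.36 on the log2 scale with SEs of 0.0847 and 0.045, a difference that was not tested. NDUFS8 and NDUFS3, core subunits of the arm that leads electrons to quinone, had 181 ± 5.93 FPKM with DMSO and 161 ± 6.97 FPKM with BCT, and 128 ± 5.11 FPKM with DMSO and 117 ± 1.97 FPKM with BCT (SD, n = 3), with log2 fold changes of -0.17 and -0.13 and adjusted p-values in limma of 0.016 and 0.037. NDUFS7, which carries the last cluster before quinone, had 179.5, 174 and 192 FPKM in the DMSO samples and 171, 176 and 168 FPKM in the BCT samples, and its groups overlapped (log2 fold change -0.081, limma, adjusted p = 0.19). After a correction for GC content and transcript length the values of NDUFS8 and NDUFS7 were 0.059 and 0.23, so their direction depended on the processing, that of NDUFS3 was -0.061, and NDUFS1 was called lower with -0.99.

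Of the accessory subunits, the most abundant were NDUFB2, with 495, 474 and 511 FPKM in the DMSO samples and 316, 297 and 290.3 FPKM in the BCT samples, and NDUFA1, with 489.5, 486 and 483 FPKM in the DMSO samples and 304, 285 and 273 FPKM in the BCT samples. Both fell, with log2 fold changes of -0.71 and -0.76 and adjusted p-values in limma of 5.2e-06 and 3.5e-06. NDUFA4, counted here by its symbol, had 222 ± 4.15 FPKM with DMSO and 130.1 ± 7.78 FPKM with BCT (SD, n = 3) and a log2 fold change of -0.77, and counting it with complex IV left 4 called genes in complex I and 1 in complex IV. The 4 subunits that rose at the FDR were NDUFV3, NDUFB9, NDUFB4 and NDUFS4, and none of these reached the fold change threshold. NDUFV3, a small accessory subunit of the NADH-oxidising module and the least abundant member of complex I in DMSO, had 29.1, 29.7 and 30.05 FPKM in the DMSO samples and 42.6, 43.2 and 39.04 FPKM in the BCT samples (log2 fold change 0.49, SE 0.0544, limma, adjusted p = 4.7e-05). NDUFB9, an accessory subunit of the membrane arm, had 189.96, 183 and 193 FPKM in the DMSO samples and 234, 247 and 235 FPKM in the BCT samples (log2 fold change 0.34, SE 0.0472, limma, adjusted p = 1.8e-04). NDUFB4, of the same arm, had 291, 283 and 289 FPKM in the DMSO samples and 354, 339 and 351 FPKM in the BCT samples, and NDUFS4, which helps to hold the NADH-oxidising module in place, had 151, 145 and 150.1 FPKM in the DMSO samples and 182, 171 and 169.5 FPKM in the BCT samples. In all 4 every BCT sample lay above every DMSO sample, and the log2 fold changes of NDUFB4 and NDUFS4 were 0.28 and 0.23 (limma, adjusted p = 4.6e-04 and 0.0024). The accessory subunits that passed in neither direction were NDUFA6, NDUFA7, NDUFA8, NDUFA9, NDUFA12, NDUFA13, NDUFB10 and NDUFC1, with log2 fold changes from -0.098 (NDUFA7) to 0.067 (NDUFC1).

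**Figure D3:**
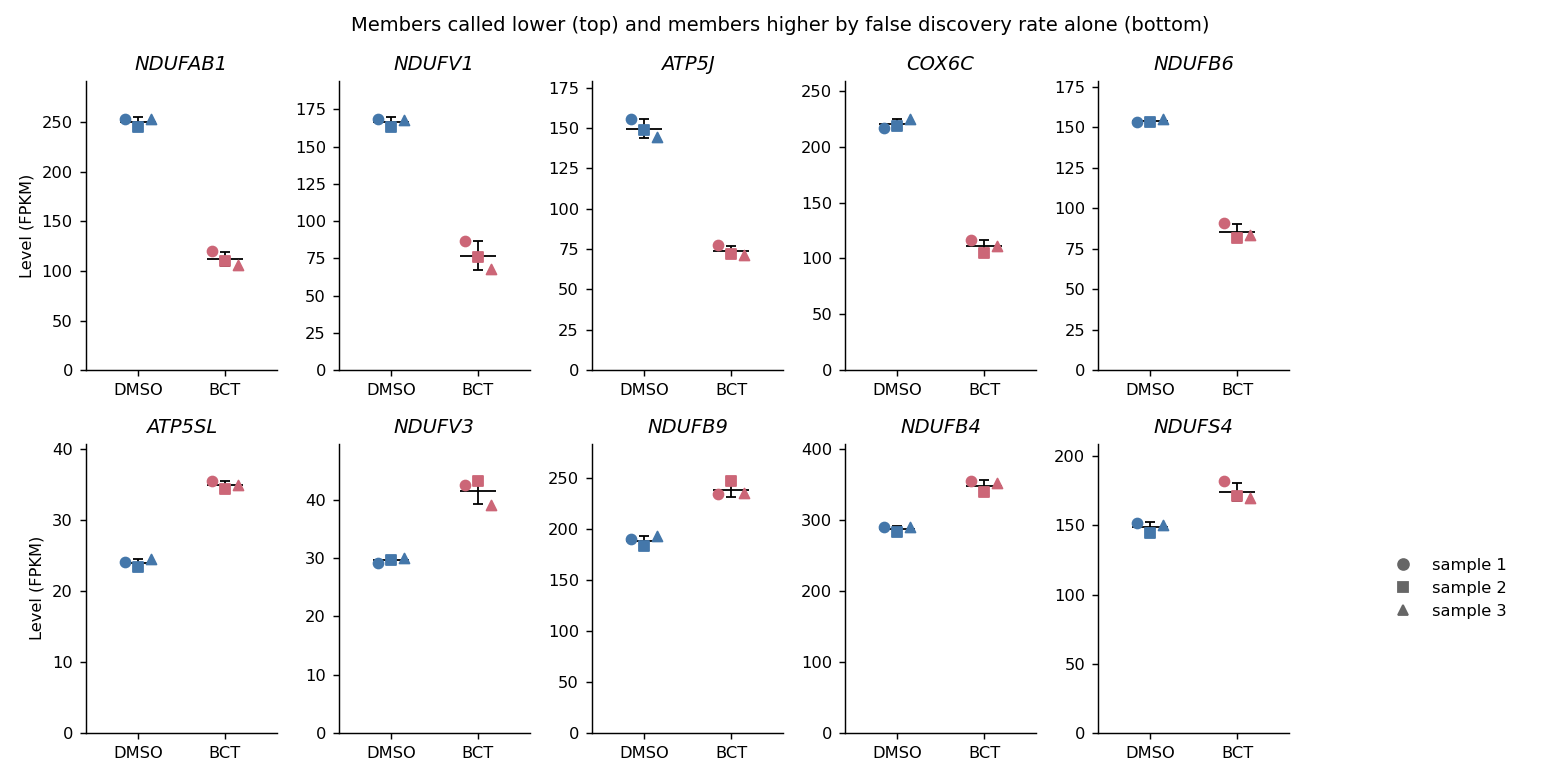
Level in FPKM of 5 of the 6 members called lower (top row) and the 5 members higher at the FDR alone (bottom row) in each of the 3 DMSO and 3 BCT samples; black bars are the mean and SD and each axis starts at 0. The groups do not overlap in any panel. With equal FPKM sums the genes of the top row were not called. Those of the bottom row were then called higher, as were 44.1% of all tested genes.

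Complex III passes electrons from ubiquinol to cytochrome c, and its 8 tested members all fell, while CYC1, which the rule leaves out, did not pass the FDR. CYC1 had 371 ± 11.3 FPKM with DMSO and 362 ± 23.1 FPKM with BCT (SD, n = 3). Its groups overlapped (log2 fold change -0.036, limma, adjusted p = 0.59). The median log2 fold change of the 8 tested members was -0.47 (change of -27.7%) in the values as deposited, which ran from -0.84 to -0.17. It was 0.30 with equal FPKM sums and -0.082 with equal sums without MIR6087. All 8 passed the FDR downwards, where 42.8% of all tested genes did, and fell without overlap of the groups, where 44.3% did. The fold change threshold was reached by 0 of them, where 17.8% of all tested genes were called lower. UQCRH missed it most narrowly and passed it, with -0.87, after the correction for GC content and length. UQCRH, the hinge protein that contacts cytochrome c1 and the most abundant member of the complex, had 699, 673 and 690.2 FPKM in the DMSO samples and 398, 379 and 372 FPKM in the BCT samples (log2 fold change -0.84, SE 0.0486, limma, adjusted p = 1.5e-06). UQCRC2 and UQCRC1 encode the paired core proteins of the matrix side, and they differed in size of change. UQCRC2 had 173, 165 and 158 FPKM in the DMSO samples and 101, 96.2 and 93.03 FPKM in the BCT samples (log2 fold change -0.77, SE 0.055, limma, adjusted p = 3.9e-06). UQCRC1 had 246, 242 and 241 FPKM in the DMSO samples and 228, 221 and 198 FPKM in the BCT samples (log2 fold change -0.17, SE 0.0608, limma, adjusted p = 0.027), the smallest fall among the 8 tested members in the values as deposited. Its log2 fold change was -0.032 after the correction for GC content and length and 0.60 with equal FPKM sums, where it was the largest rise among these members. UQCRFS1, the Rieske iron-sulphur protein, had 185, 181 and 180.3 FPKM in the DMSO samples and 135, 137 and 132 FPKM in the BCT samples (log2 fold change -0.44, SE 0.0439, limma, adjusted p = 2.5e-05). UQCRHL, a gene derived from UQCRH, was not tested, with 0.448 ± 0.197 FPKM with DMSO and 0.734 ± 0.137 FPKM with BCT (SD, n = 3) and groups that overlapped; reads of the 2 similar genes may have been split between them in either direction.

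Complex IV reduces oxygen, and its tested genes had the largest and most even fall of the 4 complexes in the values as deposited. The 11 tested members had a median log2 fold change of -0.69 (change of -38.02%) in the values as deposited, which ran from -0.99 to -0.37. The median was 0.077 with equal FPKM sums and -0.30 with equal sums without MIR6087. All 11 passed the FDR downwards, where 42.8% of all tested genes did, and fell without overlap of the groups, where 44.3% did. Their SD was 0.20 against 0.41 in complex I. COX6C was called, and COX7C, the most abundant member of the complex, followed with 1929.9, 1747 and 1840.4 FPKM in the DMSO samples and 1082, 1034 and 1006 FPKM in the BCT samples (log2 fold change -0.82, SE 0.058, limma, adjusted p = 3.6e-06). COX6A1, the next most abundant, had 1576, 1448 and 1555 FPKM in the DMSO samples and 1005, 897 and 869.9 FPKM in the BCT samples (log2 fold change -0.73, SE 0.0686, limma, adjusted p = 1.7e-05). COX4I1, the subunit through which ATP is known to regulate the enzyme, had 634, 598 and 637 FPKM in the DMSO samples and 391, 397 and 365 FPKM in the BCT samples (log2 fold change -0.70, SE 0.0543, limma, adjusted p = 6.0e-06). COX6B1, on the intermembrane side, had the smallest fall of the complex in the values as deposited, with 421 ± 16.4 FPKM with DMSO and 326 ± 18.3 FPKM with BCT (SD, n = 3) and a log2 fold change of -0.37 (limma, adjusted p = 3.6e-04), and with equal FPKM sums, at 0.40, its largest rise.

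Several subunits of complex IV have a second gene that is known to be used in particular tissues, and these second genes were at or near 0 in 22RV1 cells. COX4I2, of lung, COX6A2, of heart and muscle, and COX7B2 were listed at 0 in all 6 samples. COX7A1, of heart and muscle, lay between 0 and 0.081 FPKM, COX8C between 0 and 0.126 FPKM, and COX6B2, of testis, between 0.045 and 0.143 FPKM. None of these 6 genes passed the filter, which takes the mean over all 6 samples, so 0 of the 11 tested values of complex IV came from a tissue-restricted form. Among the COX7A genes, COX7A2 had 395 ± 16.6 FPKM with DMSO and 230.1 ± 8.59 FPKM with BCT and COX7A2L, known from respiratory supercomplexes, 55.1 ± 3.23 FPKM with DMSO and 34.1 ± 1.93 FPKM with BCT (SD, n = 3). The ratio of COX7A2L to COX7A2 was 0.138, 0.136 and 0.145 in the DMSO samples and 0.152, 0.142 and 0.151 in the BCT samples, a difference of 0.088 on the log2 scale (exact two-sided permutation test, p = 0.2, adjusted over 4 pairs 0.2). The 2 groups of ratios overlapped.

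Complex V makes ATP with a catalytic F1 head that is driven by a membrane ring of c subunits. At the FDR, 16 of its 17 tested members fell (94.1%, where 42.8% of all tested genes did). The median log2 fold change of the 17 was -0.50 (change of -29.4%) in the values as deposited, 0.27 with equal FPKM sums and -0.12 with equal sums without MIR6087. The 5 genes of the F1 head had a median of -0.57. All of them passed the FDR downwards, where 42.8% of all tested genes did, and without overlap, where 44.3% did. ATP5B, the catalytic beta subunit and the member with the highest level of all, had 1966, 1875 and 1782 FPKM in the DMSO samples and 1113, 1042 and 981 FPKM in the BCT samples (log2 fold change -0.84, SE 0.0653, limma, adjusted p = 5.9e-06). ATP5A1, the alpha subunit that alternates with it, had 701, 667 and 643 FPKM in the DMSO samples and 390.3, 379 and 376 FPKM in the BCT samples (log2 fold change -0.81, SE 0.051, limma, adjusted p = 2.2e-06). After the correction for GC content and length ATP5A1 was called, with -0.93, and ATP5B was not, with -0.81. The genes of the rotating central stalk, ATP5C1, ATP5D and ATP5E, had log2 fold changes of -0.45, -0.57 and -0.53 (limma, adjusted p = 4.4e-05, 2.0e-05 and 2.0e-05), smaller falls than those of the hexamer in the values as deposited, and ATP5D had -0.17 after the same correction. ATP5E shares its interval with SLMO2-ATP5E, a read-through transcript of the neighbouring gene listed at 35.9 ± 0.57 FPKM with DMSO and 29.6 ± 1.92 FPKM with BCT (SD, n = 3), so its reads are uncertain to that extent. ATP5J2, a membrane subunit with the next highest level of complex V after ATP5B, had 1690.3, 1544 and 1728 FPKM in the DMSO samples and 1328, 1211 and 1146 FPKM in the BCT samples (log2 fold change -0.43, SE 0.0718, limma, adjusted p = 5.4e-04).

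Subunit c is encoded by 3 genes whose mature proteins are known to be identical and which differ in their import sequences. ATP5G2 was the most used, with 874 ± 34.9 FPKM with DMSO and 721 ± 23.99 FPKM with BCT, before ATP5G1, with 393 ± 6.43 FPKM with DMSO and 278 ± 24.4 FPKM with BCT, and ATP5G3, with 87.2 ± 2.69 FPKM with DMSO and 53.4 ± 3.79 FPKM with BCT (SD, n = 3). All 3 fell at the FDR, where 42.8% of all tested genes did, by 0.28, 0.50 and 0.71 on the log2 scale. In the values as deposited the most abundant gene thus fell least, and with equal FPKM sums, at 0.49, 0.27 and 0.060, it rose most. A ratio within a sample does not depend on how samples are scaled to each other. The ratio of ATP5G1 to ATP5G2 was 0.445, 0.463 and 0.441 in the DMSO samples and 0.404, 0.388 and 0.362 in the BCT samples. The ratio of ATP5G2 to ATP5G3 was 9.73, 9.85 and 10.5 in the DMSO samples and 12.9, 13.7 and 13.9 in the BCT samples. The ratio of ATP5G1 to ATP5G3 was 4.33, 4.56 and 4.64 in the DMSO samples and 5.23, 5.32 and 5.04 in the BCT samples. In each of these 3 pairs the groups of ratios did not overlap, and the log2 differences were -0.23, 0.43 and 0.20. Each gave p = 0.1 in an exact two-sided permutation test, the smallest that 3 samples against 3 allow, and 0.133 after adjustment over the 4 pairs that could be tested, so these shifts cannot pass a threshold of 0.05 in this design. Of the 12 pairs of similar genes listed, the other 8 had a gene below the filter, among them ATP5L with ATP5L2, which lay between 0 and 0.046 FPKM. GENCODE names 8 pseudogenes for ATP5G1, 5 for ATP5G2 and 0 for ATP5G3, so part of the reads of ATP5G1 and ATP5G2 may have been shared with copies.

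The 2 genes of the ATP5 set that are not subunits moved apart. ATP5S, once known as coupling factor B, was the least abundant tested member, with 7.02, 7.02 and 6.59 FPKM in the DMSO samples and 4.34, 4.03 and 3.25 FPKM in the BCT samples (log2 fold change -0.82, SE 0.106, limma, adjusted p = 1.1e-04). ATP5SL, an assembly factor of complex I despite its name, had 24.2, 23.4 and 24.5 FPKM in the DMSO samples and 35.5, 34.4 and 34.99 FPKM in the BCT samples (log2 fold change 0.54, SE 0.0467, limma, adjusted p = 1.1e-05). ATP5SL was the only member of the ATP5 set that rose and had the largest rise of all 74 members, and its groups did not overlap. Without both genes, 6 of 72 tested members were called lower and 0 higher, and the median of the members was again -0.43.

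Summed over genes, each complex had a lower level with BCT in the values as deposited. The 38 genes of complex I went from 7482 ± 160.4 to 6029 ± 190.3 FPKM (SD, n = 3), to 80.6% of the DMSO level. The 9 genes of complex III went from 1715 ± 29.97 to 1137 ± 45.9 FPKM, to 66.3%, and the 17 genes of complex IV from 8068 ± 264 to 5242 ± 203 FPKM, to 64.97%. The 18 genes of complex V went from 9476 ± 234 to 6709.7 ± 319.6 FPKM, to 70.8%. For all 4 sums every BCT sample lay below every DMSO sample, and complex I kept the largest share of its DMSO level. As a share of the FPKM sum of the sample, all members together made up 1.73% to 2.22% with DMSO and 2.42% to 2.49% with BCT, a difference in the opposite direction. Without MIR6087 in the sum the shares were 3.86% to 3.94% and 3.59% to 3.67%. The direction of the summed level therefore depends on what the samples are scaled to.

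The same genes were the abundant ones in both treatments. The order of the 74 tested members by level in BCT followed that in DMSO with a Spearman correlation of 0.948, a description over genes that share libraries. The spread between samples was small, with a median coefficient of variation over members of 3.08% in DMSO and 4.31% in BCT. Taken as the median over members, relative to the DMSO mean, the DMSO samples lay at 0.026, -0.031 and 0.0076 and the BCT samples at -0.385, -0.437 and -0.476 on the log2 scale. BCT sample 1 had the highest BCT value in 56 of the 74 members and BCT sample 3 the lowest in 54. The FPKM sums of BCT samples 1, 2 and 3 without MIR6087 had the same order, at 541473, 523475 and 511580. The members made up 3.67%, 3.65% and 3.59% of these sums. Whether the order is particular to the members was not tested. Without BCT sample 1, 9 members were called lower in place of 6.

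Transcripts of the members are short. Of the 74 tested members, 73 had a transcript in GENCODE (lifted to GRCh37), with a median length of 758 bases and a median of 4 exons, against 3200 bases and 9 exons over all tested genes, while their median GC content was 47.5% against 48.3%. Within the members, the Spearman correlation with the log2 fold change was -0.071 for length, 0.018 for the number of exons, 0.25 for GC content and -0.19 for the DMSO level, as descriptions over genes measured in the same libraries. The 44 members with a transcript of at most 1000 bases had a median log2 fold change of -0.37, and all 928 tested genes of that length had -0.25. GENCODE names pseudogenes for 45 of the 82 members, with 17 for COX6C, 12 each for NDUFA5 and NDUFB4 and 11 for ATP5A1, and reads of such genes may have been shared with their copies. The tables give 20 of the 82 members the same interval as another gene, and the kit does not tell strands apart.

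Other genes of the pathway, from lists written for this work, moved less evenly. Of the 4 subunits of complex II, which feeds electrons from succinate and is encoded wholly in the nucleus, SDHA was called lower, with 102, 103 and 98.7 FPKM in the DMSO samples and 50.1, 45.1 and 45.3 FPKM in the BCT samples (log2 fold change -1.11, SE 0.056, limma, adjusted p = 1.0e-06). SDHC and SDHD fell at the FDR with log2 fold changes of -0.77 and -0.66, whereas SDHB, the iron-sulphur subunit, had 154 ± 4.49 FPKM with DMSO and 167 ± 4.18 FPKM with BCT (SD, n = 3) and 0.12 (limma, adjusted p = 0.048). Of 51 assembly factors, all tested, 4 were called lower (7.84%, where 17.8% of all tested genes were) and 2 higher (3.92%, where 13.9% were), with a median log2 fold change of -0.19. The 4 called lower were FOXRED1 (-1.69) and ACAD9 (-1.29) for complex I, LYRM7 (-1.73) for complex III and LRPPRC (-0.93), which stabilises mitochondrial messenger RNAs. The 2 called higher were NDUFAF5 (0.99) for complex I and COX19 (0.93) for complex IV. By complex, the median was 0.043 for the 14 factors of complex I, -0.25 for the 6 of complex III, -0.32 for the 24 of complex IV, -0.32 for the 3 of complex V and -0.21 for the 4 of complex II. FOXRED1 had 128, 127 and 127 FPKM in the DMSO samples and 46.2, 37.3 and 35.4 FPKM in the BCT samples, which is a larger fall than that of any subunit.

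Among 6 further proteins of the chain, NDUFA4L2, a homologue of NDUFA4, was called lower, with 30.7, 15.3 and 29.05 FPKM in the DMSO samples and 8.90, 6.82 and 6.83 FPKM in the BCT samples (log2 fold change -1.67, SE 0.247, limma, adjusted p = 2.7e-04), and its 3 DMSO samples differed widely. This is 16.7% of the list, where 17.8% of all tested genes were called lower. USMG5, C14orf2 and CYCS fell at the FDR without being called (-0.62, -0.60 and -0.31). CYC1 and ATPIF1 passed the FDR in neither direction (-0.036 and -0.063). With NDUFA4L2, 66.7% of the list fell at the FDR, where 42.8% of all tested genes did. Of 12 genes of coenzyme Q synthesis, ADCK3 was called lower (-1.72) and COQ5 higher (0.93), with a median of -0.043. Each call is 8.33% of the list, where 17.8% of all tested genes were called lower and 13.9% higher. Of 15 regulators of respiratory genes, 14 were tested, with a median of 0.20, and PPARGC1B, a transcriptional coactivator, was the only one called (-0.96, limma, adjusted p = 2.5e-04). This is 7.14% called lower, where 17.8% of all tested genes were. At the FDR 50% of the tested regulators rose and 35.7% fell, where 39.3% and 42.8% of all tested genes did. The regulators whose words were searched above had 9.33 ± 0.304 FPKM with DMSO and 11.9 ± 0.0513 FPKM with BCT for NRF1, 13.1 ± 0.461 FPKM with DMSO and 14.4 ± 1.69 FPKM with BCT for GABPA and 49.8 ± 0.518 FPKM with DMSO and 64.98 ± 4.96 FPKM with BCT for YY1 (SD, n = 3). Their log2 fold changes were 0.35, 0.12 and 0.38 (limma, adjusted p = 2.7e-04, 0.2 and 4.8e-04), so NRF1 and YY1 rose at the FDR, as did 39.3% of all tested genes, and GABPA did not pass it.

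Because the samples differ in their FPKM sums, the size and sign of a change depended on the scaling. With upper quartile and with median of ratios scaling, the median of the members was -0.39 and -0.40. With equal FPKM sums the median of all genes was 0.72 and that of the members 0.33, 0 members were called lower, and NDUFV3, NDUFB9, NDUFB4, NDUFS4 and ATP5SL were called higher. Of all tested genes, 5.25% were called lower and 44.1% higher in that setting. With equal sums without MIR6087 the 2 medians were 0.34 and -0.046, and ATP5SL and NDUFV3 were called higher, where 26.5% of all tested genes were. Quantile normalization, which forces genes of equal rank to equal values, gave 0.029 and -0.11 and brought the distance of the members to all genes from -0.40 to -0.14. Quantile normalization called NDUFAB1 and NDUFV1 lower, where 15.7% of all tested genes were. It is the only one of these scalings that is not 1 factor per sample, and so the only one that can change the order of genes to any extent. As deposited, complex IV had the lowest median of the 4 complexes and complex I the highest; after quantile normalization complex III had the lowest, and complex I again the highest.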

How the data were processed

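RNA from 22RV1 cells treated with DMSO (3 samples) or 10 nM BCT (3 samples) for 24 h was sequenced. According to the methods and labels, the authors used Trimmomatic for trimming, HISAT2 for alignment to hg19 and StringTie for assembly, and deposited FPKM values in 1 file per sample; the labels also name HTSeq, and the gene annotation is not given in the sources used here. The members, gene lists and motifs were chosen with earlier results of these data known.

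From the deposited FPKM values, log2(FPKM + 0.1) of the 12729 genes whose mean over the 6 samples was 1 FPKM or more was tested with limma (version 3.58.1 under R 4.3.3, moderated with a trend of variance on level) and p-values were adjusted by the Benjamini-Hochberg method over all of them. On this scale the changes of low genes are understated. A gene was called beyond a log2 fold change of 0.85 in either direction with an FDR below 0.05. FPKM holds no counts, so no count test or interval was possible, and relative depth was read from the steps between low values. Ratios of similar genes were compared by an exact two-sided permutation test. The fit was tested on simulated data. Alternatives covered the pseudocount, the filter, 5 scalings, the FDR, the variance model, the threshold test, the replicate block, GC content and length (loess, span 0.5), each sample left out, and NDUFA4 counted with complex IV; the removal of ATP5S and ATP5SL was added after the data were seen.

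Named members are all called genes, in each complex those with the largest fall, the largest rise and the 2 highest levels in DMSO, pairs of similar genes and untested genes; from the other lists, at most 3 called genes. 1 called gene counted in the totals is not reported here by name. Other core subunits of complexes I, III and V, the members that rose at the FDR and others given with values, such as CYC1, CYCS, USMG5, C14orf2, ATPIF1, SDHB, SDHC, SDHD, NRF1, YY1 and GABPA, were added after their values were seen. Positions are as deposited on hg19 with 1 added to the start, as GENCODE starts match better that way (7942 against 904 genes). Symbols of 63 members matched RefSeq directly and 18 through an older symbol.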

Additional observations from a re-analysis of the deposited data

How the results depend on the processing

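With a pseudocount of 1, 5 members were called and NDUFB6 was not (-0.84). The 6 calls were the same with a pseudocount of 0.01, a mean of at least 5 FPKM, no filter, an FDR of 0.01 or no mean-variance trend. With equal FPKM sums 0 members were called lower and 5 higher, the median of the members was 0.33, and 0 genes of each of complexes I, IV and V were called lower. In this setting 5.25% of all tested genes were called lower and 44.1% higher. The log2 ratio of the summed level was then 0.45 for complex I, 0.17 for III, 0.14 for IV and 0.26 for V, and the log2 fold changes that turned were 0.32 for ATP5C1, 0.20 for ATP5D, 0.23 for ATP5E, 0.27 for ATP5G1, 0.49 for ATP5G2, 0.060 for ATP5G3, 0.34 for ATP5J2, 0.11 for ATP5L, 0.071 for COX4I1, 0.043 for COX6A1, 0.40 for COX6B1, 0.077 for COX7A2L, 0.30 for COX7B, 0.32 for COX8A, 0.0074 for NDUFA1, 0.056 for NDUFB2, 0.14 for NDUFS1, 0.64 for NDUFS3, 0.69 for NDUFS7, 0.60 for NDUFS8, 0.40 for NDUFV2, 0.60 for UQCRC1 and 0.33 for UQCRFS1. With equal sums without MIR6087, 0 members were called lower and 2 higher, the median was -0.046, 0 genes of complexes I, IV and V were called lower, the summed ratios were 0.075, -0.21, -0.24 and -0.11 for complexes I, III, IV and V, and the values that turned were 0.11 for ATP5G2, 0.014 for COX6B1, 0.26 for NDUFS3, 0.31 for NDUFS7, 0.22 for NDUFS8, 0.022 for NDUFV2 and 0.21 for UQCRC1. Quantile normalization called 2 members lower (2 in complex I, 0 in IV and 0 in V), with a median of -0.11, a distance to all genes of -0.14 and turned values of 0.039 for ATP5E, 0.30 for ATP5G2, 0.26 for ATP5J2, 0.0032 for COX6B1, 0.14 for COX7B, 0.15 for COX8A, 0.11 for NDUFS3, 0.24 for NDUFS7, 0.14 for NDUFS8 and 0.17 for UQCRC1. The 2 equal-sum settings use 1 factor per sample, which shifts all genes nearly alike, by 0.76 and 0.38 in the median of all genes. Quantile normalization is not 1 factor per sample and moved the median of all genes by 0.066. Why single genes turned with quantile normalization was not tested. The median of the members was -0.39 with upper quartile scaling, and its distance to all genes was -0.47 without the filter on low values. The correction for GC content and length called 10 members lower (1 in complex III, 2 in IV and 3 in V) and gave 0.23 for NDUFS7 and 0.059 for NDUFS8. The cause of these changes was not tested. NDUFB6 was left out of the correction because no transcript length or GC content was available for it. A test against the fold change threshold called 4 members, 0 of them in complex IV. Leaving out each sample in turn gave 5 to 9 members called lower, 0 called higher, 62 to 64 below the median of all genes, a median of -0.47 to -0.41, a distance to all genes of -0.42 to -0.38, and 3 to 4, 0 to 1, 1 to 2 and 1 to 3 calls in complexes I, III, IV and V. No sample pairing is stated. The deviations of same-numbered samples from their group means correlated at 0.116, 0.033 and 0.034, and those of differently numbered samples at -0.115 to 0.074. With only 3 samples in each group, these values cannot decide whether the replicate numbers pair the samples. With the replicate number as a block, 6 members were called lower and 0 higher, with the GC and length correction added 10 (1 in complex III, 2 in IV and 3 in V; 0.059 for NDUFS8 and 0.23 for NDUFS7), and the paired sign-flip p of the paralog ratios was 0.25, the smallest that 3 pairs allow. Over 40 named genes and 838 values under alternatives, 750 kept direction and call, 24 lost the call, 20 gained it and 44 turned. Counts per gene are not in the files, so the depth behind each value is unknown.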

Other observations

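Some members share a deposited interval with a gene that moved the other way, and these pairs were picked after their values were seen. NDUFA1 (log2 fold change -0.76) shares its interval with RNF113A, a ubiquitin ligase with 10.3, 10.03 and 8.76 FPKM in the DMSO samples and 19.1, 21.03 and 20.6 FPKM in the BCT samples (log2 fold change 1.06, SE 0.0751, limma, adjusted p = 3.8e-06). NDUFB6 (-0.85) shares its interval with TOPORS, another ubiquitin ligase, with 18.03, 18.3 and 17.1 FPKM in the DMSO samples and 31.5, 38.7 and 39.5 FPKM in the BCT samples (log2 fold change 1.03, SE 0.0879, limma, adjusted p = 1.0e-05). Both neighbours were called higher, and in both every BCT sample lay above every DMSO sample. NDUFC2 (-0.43) and ATP5F1 (-0.43) instead share theirs with ALG8 and WDR77, which were called lower (-1.45 and -0.89). Because the kit does not tell strands apart, reads from a member and an overlapping neighbour on the other strand cannot be separated, and no value here measures that share.

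The 2 pseudogenes left out by the rule were near 0: ATP5EP2 lay between 0 and 0.452 FPKM and UQCRBP1 between 0 and 0.108 FPKM.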
